A study of Homo sapiens with 12 samples.

Results

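The clustered histone genes encode mainly the replication-dependent histones H1, H2A, H2B, H3 and H4. Here they were the genes whose symbol in the platform annotation begins with H1- and a digit, H2AC, H2BC, H3C or H4C (formerly HIST1H to HIST4H). Of 19775 genes read by a probe set with a single symbol, 50 met this rule. They comprised 9 H1, 8 H2A, 14 H2B, 7 H3 and 8 H4 genes, 3 pseudogenes (H1-9P, H2AC5P and H4C10P) and the antisense RNA H1-10-AS1. Chromosome 6 held 42 of the 50, and 42 of the 46 protein-coding genes lay in histone clusters on chromosomes 6 and 1. The other 4 protein-coding genes, H1-10, H1-7, H1-8 and H2BC12L, carry a matching symbol but lie elsewhere, so the name clustered does not describe them. H1-10 is also listed below among the replication-independent variants.

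ML-2, a human acute myeloid leukaemia cell line, was measured on 12 Affymetrix arrays in 4 groups of 3. The combination group received SGI-110 at 2 µM for 24 h before ASTX660 at 5 µM was added for 9 h. The SGI-110 group received 2 µM and is labelled 33 h, the ASTX660 group received 5 µM for 9 h, and the controls received solvent. The labels used here do not say whether SGI-110 was washed out before ASTX660. SGI-110 (guadecitabine) is a prodrug of the DNA-hypomethylating nucleoside decitabine, and ASTX660 antagonises inhibitor of apoptosis proteins. Each group holds arrays of 3 independent experiments. The titles carry the numbers 2, 9 and 13, which are read here as experiment numbers although the labels do not say so. All measurements are of this 1 cell line.

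In a cycling cell the core histones H2A, H2B, H3 and H4 form the protein spool of the nucleosome, and H1 binds the linker DNA between spools. The replication-dependent histone genes are switched on together when DNA is copied, through NPAT at the histone locus body. Most of their mRNAs end in a stem-loop bound by SLBP in place of a poly(A) tail. Labelling from the 3′ end of poly(A) RNA, the usual principle of such array kits, reads only the polyadenylated part of these transcripts, so the values are not the total histone mRNA. Coding sequences within each class are also nearly alike, so a probe set may read relatives, and 20 further histone probe sets that the annotation assigns to several symbols were set aside.

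Many H2A and H2B genes stand head to head and share the DNA between them. Shown are the 250 bases upstream of the start of 4 named genes, read 5′ to 3′ on each gene's own strand in GRCh38.p14 from RefSeq. H2AC8 and H2BC4 were the genes called lower in both comparisons of arrays with and without SGI-110, and H2BC12 and H2AC14 are genes of high signal with small changes. Capitals mark matches, on either strand, to TATAAA (the TATA sequence), to CCAAT and to the octamer ATTTGCAT, which are known from histone promoters. H2AC8 lies at chr6:26216671-26216920 (plus strand), H2BC4 at chr6:26123927-26124176 (minus strand), H2BC12 at chr6:27146859-27147108 (minus strand) and H2AC14 at chr6:27814778-27815027 (minus strand), each interval being the stretch shown.
H2AC8: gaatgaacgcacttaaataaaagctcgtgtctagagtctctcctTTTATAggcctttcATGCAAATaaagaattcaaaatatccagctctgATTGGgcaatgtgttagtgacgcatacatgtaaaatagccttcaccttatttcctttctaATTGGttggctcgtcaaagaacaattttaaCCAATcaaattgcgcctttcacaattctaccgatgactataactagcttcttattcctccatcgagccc
H2BC4: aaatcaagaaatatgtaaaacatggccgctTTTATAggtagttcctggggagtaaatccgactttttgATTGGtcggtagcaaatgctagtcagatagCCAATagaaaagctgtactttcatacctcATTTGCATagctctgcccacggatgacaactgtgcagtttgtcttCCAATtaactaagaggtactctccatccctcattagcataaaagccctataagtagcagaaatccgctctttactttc
H2BC12: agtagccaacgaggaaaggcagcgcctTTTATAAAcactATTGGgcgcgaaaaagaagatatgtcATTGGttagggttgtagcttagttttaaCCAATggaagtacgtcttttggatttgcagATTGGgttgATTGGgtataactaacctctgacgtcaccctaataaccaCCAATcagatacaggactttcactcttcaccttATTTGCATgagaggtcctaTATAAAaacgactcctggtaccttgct
H2AC14: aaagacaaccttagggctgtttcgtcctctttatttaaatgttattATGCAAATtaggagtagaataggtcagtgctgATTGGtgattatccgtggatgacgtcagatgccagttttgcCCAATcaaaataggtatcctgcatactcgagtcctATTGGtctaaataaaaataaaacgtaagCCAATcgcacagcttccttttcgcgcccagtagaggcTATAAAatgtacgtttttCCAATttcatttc
Counted on either strand, all 3 sequences occurred in each of these 4 stretches, whether or not the gene was called. The placing of exact TATAAA matches differed among these 4 genes, which were picked by their changes. Placing was not counted in the other promoters, so no link with the calls can be read from it. Near matches close to the start, present in the H2AC8 and H2BC4 stretches, are not marked. In H2AC8 and H2BC4 the only exact match was on the opposite strand, 206 and 220 bases before the start. H2BC12 and H2AC14 had a match on the printed strand, 27 and 31 bases before the start. RefSeq starts were matched for 43 of the 50 genes. TATAAA was present on either strand upstream of 28 of these 43 (65.1%), against 11.1% of all 27305 promoters. Matches that face a divergent neighbour are thus counted too. CCAAT was present in 37 (86%), against 33% of all promoters, and the octamer ATTTGCAT in 16 (37.2%), against 1.66%. TATAAA matches on opposite strands overlap in H2BC12. These are letter matches in a fixed window and not binding sites.

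Values are RMA log2 intensities, and a difference of 1 is a factor of 2 in array signal. The array medians lay between 4.688 and 4.774, and the correlation between arrays of a group was 0.9969 to 0.9984. A gene was called when limma gave an adjusted p under 0.05 over all 19775 genes. Of the 50 histone genes, 26 (52.0%) were brighter than the median of the array on 3 or more arrays, against 12689 (64.2%) of all genes. For 21 histone genes even the highest of the 12 values lay below every array median, so their changes were read near the low end of the scale. The 10 myeloid marker genes on the table (of 12 listed) all averaged above the median, whereas 4 of 5 erythroid, 4 of 7 lymphoid and 4 of 8 fibroblast or epithelial markers did.

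SGI-110 against solvent gave 2 histone genes called lower and none called higher. H2AC8, an H2A gene, and H2BC4, an H2B gene, both fell. In RNA of a whole culture, fewer cells making a histone mRNA and less of it per cell cannot be told apart. These 2 of 50 are 4% of the genes, against 3.29% of all genes called lower, and none of 50 was called higher against 5.56% of all genes. In this fit the share called lower was thus close to that of the whole array. With the numbers in the titles as a block, 6 of the 50 were called lower, a larger share than the 6.14% of all genes. The direction of the untested values was lopsided: 39 of the 50 changes (78%) were negative, against 52.5% of all genes, and their median was -0.09 log2, against -0.01 over all genes. In 14 of the 50 genes all SGI-110 arrays lay below all solvent arrays, a larger share than the 13.3% of all genes. In 1 of the 50, H2BC11, they all lay above, where 14.4% of all genes did so. An unadjusted p under 0.05 was reached by 15 of the 50, against 20.1% of all genes.

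SGI-110 pretreatment of cells given ASTX660, read as the combination against ASTX660, shares no array with SGI-110 against solvent. It gave 4 genes called lower and none higher. They were H2AC8, H2BC4, H3C2 and H2BC17, and they make up 8% of the 50, against 4.3% of all genes called lower, while 4.95% of all genes were called higher. Of the 50 changes 34 (68%) were negative, against 52.5% of all genes, with a median of -0.06 log2 against -0.01. The arrays lay apart and below in 10 of the 50 genes, a larger share than the 12.3% of all genes. They lay apart and above in 1 of the 50, against 11% of all genes. An unadjusted p under 0.05 was reached by 8 of the 50, against 21.8% of all genes. Across both settings, the 6 arrays with SGI-110 lay below the 6 without it for 4 of the 50 genes, H2AC8, H2BC4, H2BC9 and H3C2, against 5.21% of all genes. They lay above for none, against 5.71% of all genes.

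**Figure D1:**
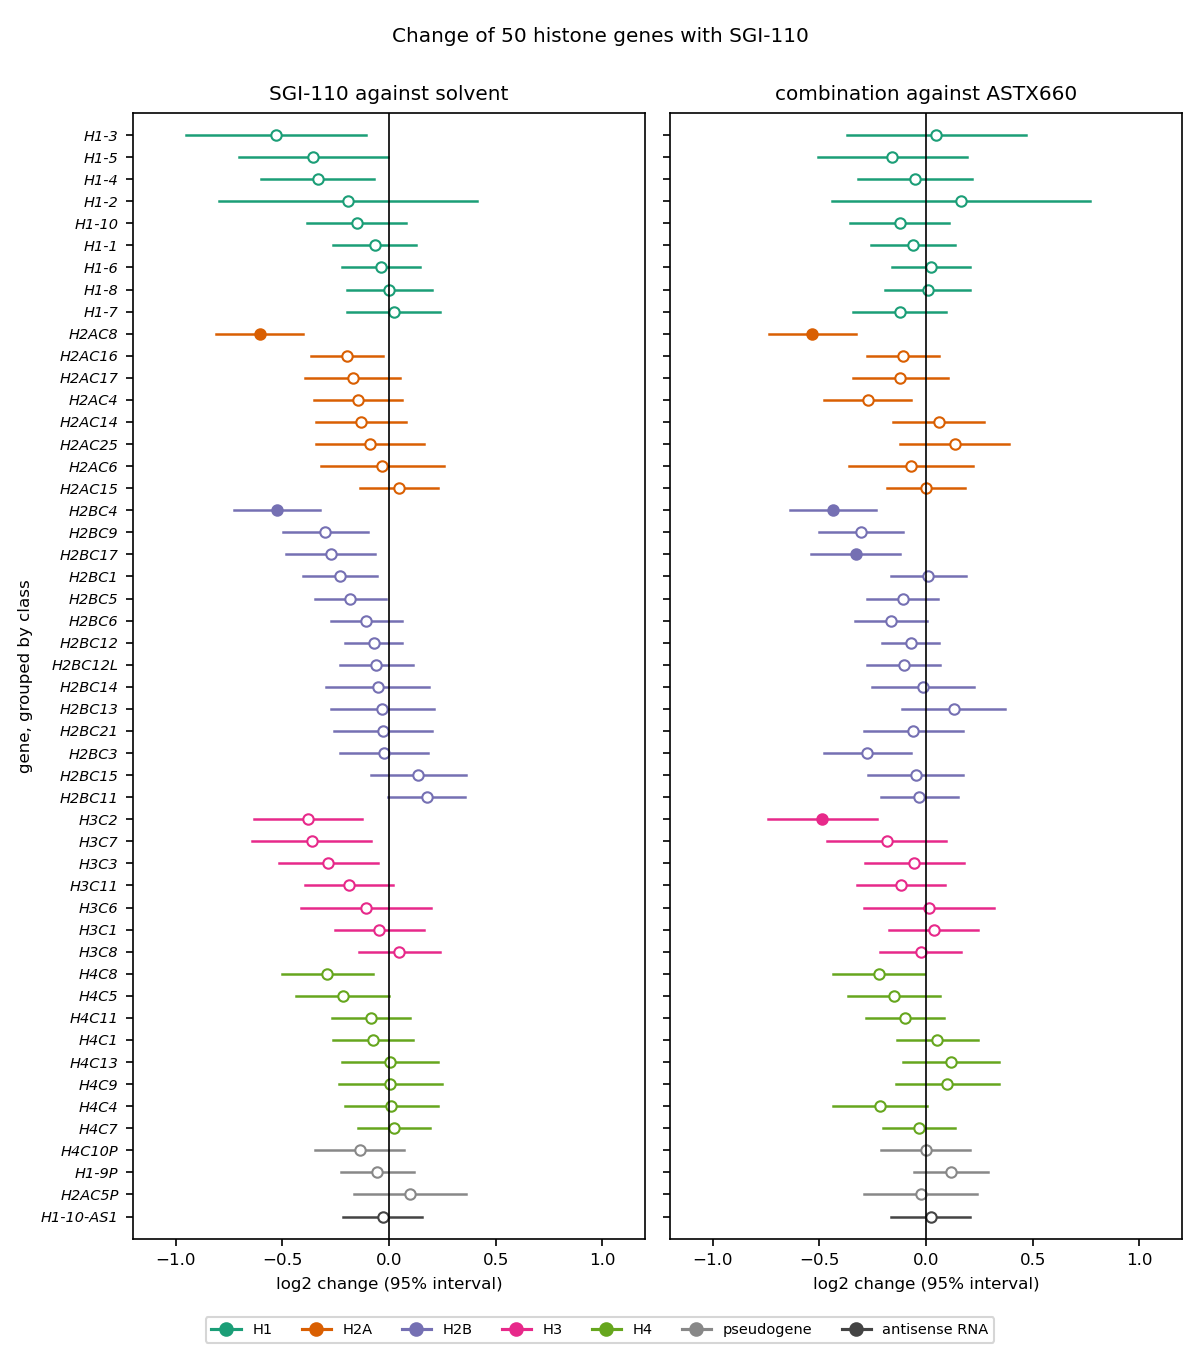
Log2 change of each of the 50 histone genes (SGI-110 minus solvent, and combination minus ASTX660) with its 95% confidence interval. Filled markers have an adjusted p under 0.05. H2AC8 and H2BC4 are filled in both comparisons, at -0.61 and -0.52 for SGI-110 against solvent and at -0.53 and -0.44 for the combination against ASTX660.

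H2AC8 read 4.26, 4.13 and 4.14 on the combination arrays and 4.14, 4.01 and 3.97 on the SGI-110 arrays. On the ASTX660 arrays it read 4.83, 4.73 and 4.57, and on the solvent arrays 4.72, 4.69 and 4.52. Every array with SGI-110 was thus below every array without it. H2AC8 fell by 0.61 log2 with SGI-110 against solvent (SE 0.10, adjusted p = 0.000806), a 1.52-fold lower signal, with an average of 4.04 ± 0.09 on SGI-110 arrays and 4.64 ± 0.11 on solvent arrays (SD, n = 3 each). In the combination against ASTX660 it fell by 0.53 log2 (adjusted p = 0.00226), a 1.45-fold lower signal. The solvent average was itself below every array median.

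H2BC4 read 4.36, 4.44 and 4.28 on the combination arrays and 4.34, 4.23 and 4.34 on the SGI-110 arrays. Without SGI-110 it read 4.92, 4.82 and 4.65 on the ASTX660 arrays and 4.86, 4.90 and 4.71 on the solvent arrays, so these groups too lay apart. The change was -0.52 log2 with SGI-110 against solvent (SE 0.09, adjusted p = 0.00224), a 1.44-fold lower signal. In the combination against ASTX660 it was -0.44 log2 (adjusted p = 0.00817), a 1.35-fold lower signal. Both calls of H2AC8 and H2BC4 held in every alternative that tested them, each array left out in turn included. The 2 brightness filters removed H2AC8 from the test, and the filter on the mean removed H2BC4. For H2AC8 the adjusted p across these settings ran from 7.42e-05 to 0.006 for SGI-110 against solvent. For H2BC4 it ran from 0.000619 to 0.0149.

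**Figure D2:**
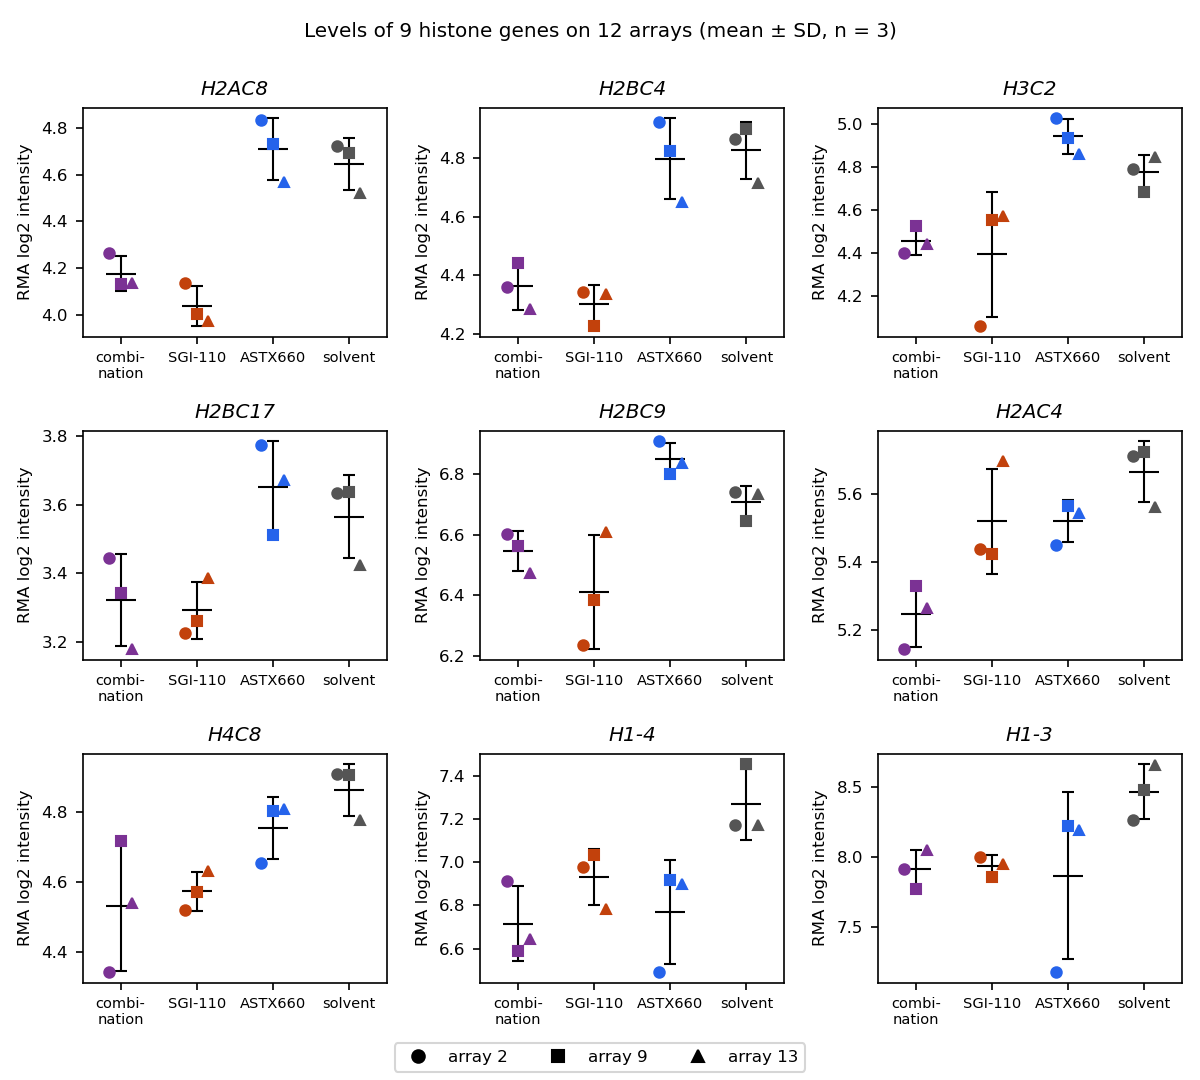
RMA log2 intensity on each of the 12 arrays for the histone genes called in any comparison and for further named ones, with the groups from left to right as combination, SGI-110, ASTX660 and solvent. For H2AC8 and H2BC4 no array with SGI-110 exceeds 4.44 and no array without it is under 4.52.

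H2BC9, H2BC17 and H2BC3 are further H2B genes. H2BC9 read 6.60, 6.56 and 6.47 on the combination arrays and 6.23, 6.39 and 6.61 on the SGI-110 arrays, against 6.91, 6.80 and 6.84 on the ASTX660 arrays and 6.74, 6.65 and 6.74 on the solvent arrays. Its arrays with and without SGI-110 did not overlap, yet the difference missed the threshold in both comparisons, at -0.30 log2 with an adjusted p of 0.0584 for SGI-110 against solvent and -0.30 log2 with 0.0522 for the combination against ASTX660. Both passed with the number in the titles as a block (0.0298 and 0.0262), with quantile normalization (0.0153 and 0.0295), with the mean of all probe sets of each gene (0.0405 and 0.0356), and with the filter on the mean (0.0371 and 0.0335) or the filter on 3 arrays (0.0375 and 0.0338). Without SGI-110 array 13 both passed as well (0.0168 and 0.028), and without SGI-110 array 2 the second did (0.0379). H2BC17 read 3.44, 3.34 and 3.18 on the combination arrays, against 3.78, 3.51 and 3.67 on the ASTX660 arrays, and fell by 0.33 log2 (adjusted p = 0.0466), all at the dim end of the scale. That call was lost in 12 alternatives, with an adjusted p of up to 0.19, 8 of them the loss of 1 array (ASTX660 2 or 13, combination 9 or 13, SGI-110 2 or 9, solvent 2 or 9). H2BC3 averaged 3.95 ± 0.12 on combination arrays and 4.22 ± 0.08 on ASTX660 arrays (SD, n = 3 each) and was not called (adjusted p = 0.0912).

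The other H2B genes gave no call in either comparison, and 12 of the 14 H2B changes were negative in each. H2BC12, the member with the highest average signal, read 9.76, 9.84 and 9.77 on the combination arrays and 9.77, 9.79 and 9.79 on the SGI-110 arrays, against 9.85, 9.82 and 9.92 on the ASTX660 arrays and 9.71, 9.99 and 9.87 on the solvent arrays. Its values overlapped between SGI-110 and solvent arrays, with a difference of -0.07 log2. H2BC11 was the member with the highest positive difference for SGI-110 against solvent, 0.18 log2 (adjusted p = 0.262), on values between 2.87 and 3.28.

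Among the H2A genes only H2AC8 was called in the 2 SGI-110 comparisons, and 7 of the 8 H2A changes were negative for SGI-110 against solvent. H2AC14, the promoter of which is printed above, averaged 6.80 ± 0.07 with SGI-110 and 6.93 ± 0.14 with solvent (SD, n = 3 each), a difference of -0.13 log2 that was not called (adjusted p = 0.544). For ASTX660 against solvent H2AC14 differed by -0.27 log2, which was not called (adjusted p = 0.625). H2AC4 averaged 5.52 ± 0.15 with SGI-110 and 5.67 ± 0.09 with solvent (SD, n = 3 each) and was not called either (adjusted p = 0.464).

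H3C2, an H3 gene, read 4.40, 4.53 and 4.44 on the combination arrays, against 5.03, 4.94 and 4.86 on the ASTX660 arrays. It fell by 0.49 log2 (SE 0.12, adjusted p = 0.0178), a 1.40-fold lower signal. That call was lost without ASTX660 array 2 (0.0589), combination array 13 (0.0558) or combination array 2 (0.067). The SGI-110 arrays read 4.06, 4.55 and 4.57, against 4.79, 4.69 and 4.85 on the solvent arrays. There the difference was -0.38 log2 and missed the threshold (adjusted p = 0.0616) but passed with the block (0.0315), without SGI-110 array 13 (0.0446) and without SGI-110 array 9 (0.0491). H3C7 differed by -0.36 log2 (adjusted p = 0.111) and H3C3 by -0.29 log2 (adjusted p = 0.132) for SGI-110 against solvent, and neither was called. H3C7 passed without ASTX660 array 9 (0.0482).

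None of the 8 H4 genes was called in either comparison, and 4 of 8 changes were negative for SGI-110 against solvent, with a class median of -0.04 log2. H4C8 read 4.52, 4.57 and 4.63 on the SGI-110 arrays, against 4.91, 4.90 and 4.78 on the solvent arrays. Those arrays did not overlap, and the difference of -0.29 log2 had an adjusted p of 0.0922. A second, dimmer H4C8 probe set, averaging 2.63, went the other way at 0.14 log2 (adjusted p = 0.631 over all probe sets). An H4 probe set outside the 50, assigned to 14 H4 genes at once, averaged 13.2 in each of the combination, SGI-110 and ASTX660 groups and 13.3 on solvent arrays, and its difference for SGI-110 against solvent was not called (adjusted p = 0.749). A dimmer probe set with the same 14 symbols, averaging 6.74, differed by -0.20 log2 and was not called either (adjusted p = 0.329). The remaining ones with these symbols ran from -0.14 to 0.06 log2, without a call.

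The linker histone genes H1-2, H1-3, H1-4 and H1-10 gave bright signals, and none was called in the 2 SGI-110 comparisons. H1-3 read 8.0, 7.85 and 7.95 on the SGI-110 arrays, against 8.26, 8.48 and 8.65 on the solvent arrays. These did not overlap, but the difference of -0.53 log2 had an SE of 0.20 and an adjusted p of 0.124. On the combination arrays H1-3 read 7.91, 7.77 and 8.05, against 7.17, 8.22 and 8.19 on the ASTX660 arrays, a difference of 0.05 log2 (adjusted p = 0.926). The ASTX660 group was spread by its array 2, which was the lowest of the 12 arrays for 11 of the 50 histone genes and the highest for another 11. Over all genes it was lowest for 12.7% and highest for 18%, both smaller shares than 11 of 50. Without that array the H1-3 difference for SGI-110 against solvent passed the threshold (adjusted p = 0.00241), and it also passed with the experiment number as a block (0.0168).

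H1-4 read 6.98, 7.03 and 6.78 on the SGI-110 arrays, against 7.17, 7.45 and 7.17 on the solvent arrays. The difference of -0.34 log2 did not pass (adjusted p = 0.122), and it passed narrowly with the block (0.0487). H1-2 read 7.34 on ASTX660 array 2 and 8.49 and 9.02 on the other 2, and its solvent arrays read 8.70, 8.54 and 9.08. H1-5, a dim probe set, averaged 3.94 ± 0.16 with SGI-110 and 4.30 ± 0.22 with solvent (SD, n = 3 each) and was not called. With the block, SGI-110 against solvent gave 6 of the 50 genes called lower and none higher, namely H2AC8, H2BC4, H3C2, H2BC9, H1-4 and H1-3. In that fit 6.14% of all genes, a smaller share, were called lower, and 9.29% higher. The numbers 2, 9 and 13 met the criterion for pairing in this comparison.

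The combination against solvent gave 5 of the 50 genes (10%) called lower and none higher, against 3.49% and 7.15% of all genes. It shares arrays with both comparisons above and is no separate evidence. H2BC4 fell by 0.46 log2 (adjusted p = 0.00469) and H2AC8 by 0.47 log2 (adjusted p = 0.0048). H1-4 read 6.91, 6.59 and 6.65 on the combination arrays, against 7.17, 7.45 and 7.17 on the solvent arrays, and fell by 0.55 log2 (adjusted p = 0.00941). H2AC4 read 5.14, 5.33 and 5.26 on the combination arrays, against 5.71, 5.72 and 5.56 on the solvent arrays, and fell by 0.42 log2 (adjusted p = 0.0101). Without solvent array 9, H1-4 (0.0595) and H2AC4 (0.0506) were not called, and 2 genes were called. H4C8 fell by 0.33 log2 (adjusted p = 0.0461), and this call was lost in 14 alternatives, among them the mean of all probe sets of the gene (-0.10 log2, adjusted p = 0.428) and the loss of any 1 array other than ASTX660 2 and combination 9. Of the 50 changes 43 (86%) were negative, against 56.5% of all genes. The arrays lay apart below in 16 of the 50, a larger share than the 15.9% of all genes. They lay apart above in 1 of the 50, against 15.1% of all genes. Of the 50, 13 had an unadjusted p under 0.05, against 24.8% of all genes.

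ASTX660 against solvent called none of the 50 genes, where 0% of all genes were called. Of the 50, 7 had an unadjusted p under 0.05, a larger share than the 7.64% of all genes. Of the 50 differences 31 were negative, against 47% of all genes. H1-4 read 6.49, 6.92 and 6.90 on the ASTX660 arrays, against 7.17, 7.45 and 7.17 on the solvent arrays, a difference of -0.50 log2 (adjusted p = 0.622). H1-3 differed by -0.60 log2 and H2BC3 by 0.31 log2 (adjusted p = 0.622 each). The ASTX660 arrays lay apart below in 7 of the 50 and apart above in 5 of the 50. These are larger shares than the 6.86% and 5.93% of all genes. Adding ASTX660 after SGI-110 (the combination against SGI-110) called none of the 50 and 0% of all genes, with 25 changes below and 25 above 0, where 49.6% of all genes were below. In 2 of the 50 the combination arrays lay apart below (5.92% of all genes) and in 2 of the 50 apart above (3.72%). Of the 50, 2 had an unadjusted p under 0.05, against 3.93% of all genes. The interaction, which asks whether the 2 agents' changes add up on the log2 scale, also called none of the 50 and 0% of all genes. Of its 50 values 19 were negative, against 53.3% of all genes, and no histone gene had an unadjusted p under 0.05, against 2.68% of all genes. For H1-3 it was 0.58 log2 with a 95% confidence interval from -0.02 to 1.17.

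Each array was also summarised by the median, over the 50 genes, of the difference from the gene's own 12-array average. That median lay between -0.08 and -0.02 on combination arrays and between -0.05 and -0.03 on SGI-110 arrays, against 0.01 to 0.06 on ASTX660 arrays and 0.03 to 0.09 on solvent arrays. The arrays with and without SGI-110 did not overlap, and no test was made of this summary. Over all genes the same median stayed between -0.01 and 0.01 on every array. Among the 23 histone genes that averaged above the median level, the ranges did overlap, at -0.08 to 0.01 on combination arrays and -0.07 to 0.09 on ASTX660 arrays. Between 30 and 39 of the 50 genes were below their own average on each array with SGI-110, against 7 to 24 on each array without it. The signal of GAPDH and ACTB control probe sets at the 3′ end minus that at the 5′ end stayed within 0.10 log2 of 0 on every array.

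**Figure D3:**
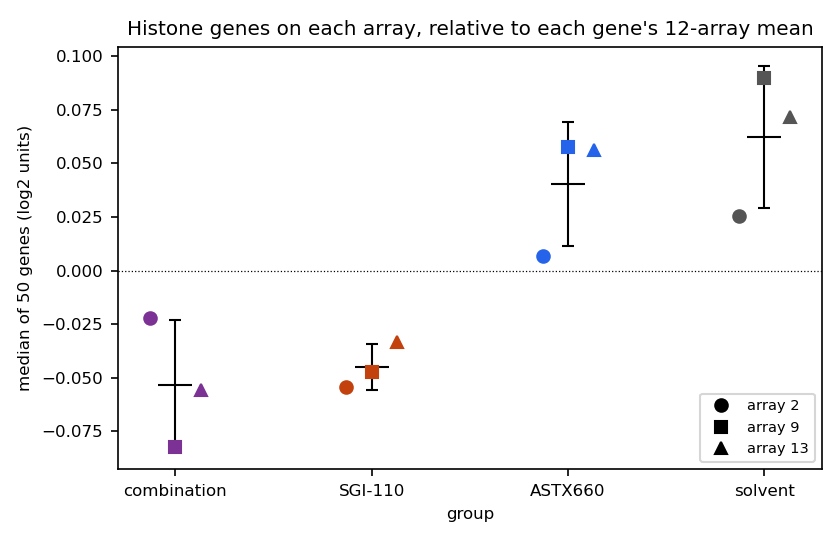
Median over the 50 histone genes of the difference from each gene's 12-array average (log2 units), one point per array, with the group mean and SD (n = 3 arrays). Combination and SGI-110 arrays lie between -0.08 and -0.02, and ASTX660 and solvent arrays between 0.01 and 0.09.

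Divergent H2A and H2B neighbours were set side by side. Both genes had a probe set annotated to their symbol alone in 4 pairs with starts 194 to 246 bases apart. Such a probe set may still read relatives, so the values do not settle which gene of a pair moved. The starts of H2BC4 and H2AC6 are 246 bases apart. H2AC6 read 4.89, 4.89 and 5.43 on the SGI-110 arrays, against 5.16, 5.01 and 5.14 on the solvent arrays, a difference of -0.03 log2 with a 95% confidence interval from -0.32 to 0.26 (adjusted p = 0.945). The H2BC4 interval was -0.73 to -0.32. In the combination against ASTX660 the H2AC6 difference was -0.07 log2 and the H2BC4 change -0.44 log2, and the difference between partners was not tested.

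In the pair H2AC17 and H2BC17, 240 bases apart, H2AC17 was not called in the combination against ASTX660 (-0.12 log2, adjusted p = 0.572), where H2BC17 was. The pairs H2AC14 with H2BC14 and H2AC15 with H2BC15 had no call, with differences between -0.13 and 0.14 log2 over both comparisons. H2AC8 stands 233 bases from the start of H2BC8, which had no probe set of its own. A probe set assigned to H2BC8 together with H2BC4, H2BC6, H2BC7 and H2BC10 averaged 6.83 with SGI-110 and 7.16 with solvent, and it fell by 0.33 log2 (adjusted p = 0.0176 over all 54613 probe sets). In the combination against ASTX660 it was not called (-0.13 log2, adjusted p = 0.402). Another 2 probe sets with the same 5 symbols were not called in either comparison, with differences of -0.24 and -0.22 log2 for SGI-110 against solvent (adjusted p = 0.114 and 0.443) and of -0.23 and -0.30 log2 for the combination against ASTX660 (adjusted p = 0.125 and 0.185). Probe sets assigned only to H2BC8 and H2BC11 were not called either. They differed by 0.10 and -0.24 log2 for SGI-110 against solvent (adjusted p = 0.812 and 0.369). For the combination against ASTX660 the differences were 0.005 and -0.36 log2 (adjusted p = 0.992 and 0.1).

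**Figure D4:**
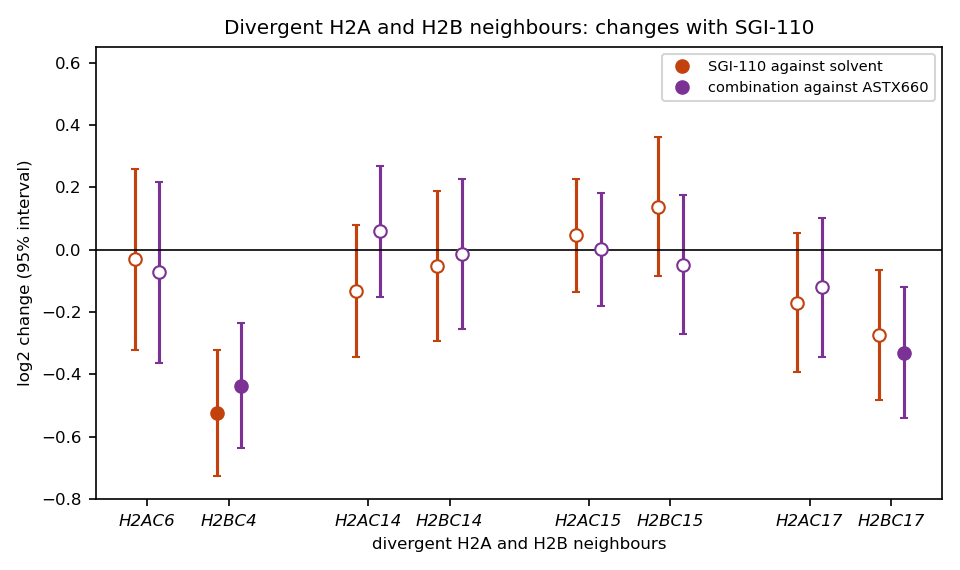
Log2 change with a 95% confidence interval for 4 divergent pairs of H2A and H2B genes, for SGI-110 minus solvent and combination minus ASTX660; filled markers have an adjusted p under 0.05. H2BC4 is called in both comparisons at -0.52 and -0.44, beside H2AC6 at -0.03 and -0.07.

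Probe sets with several histone symbols numbered 20. For SGI-110 against solvent 1 was called lower and none higher, against 1.66% and 2.98% of all probe sets, 14 of the 20 changes were negative and their median was -0.11 log2. For the combination against ASTX660 1 was called lower and none higher, against 2.46% and 2.9%. It was a probe set shared by several H2A genes, H2AC12 among them, and it averaged 4.69 on combination arrays and 5.29 on ASTX660 arrays, a fall of 0.60 log2 (adjusted p = 0.00809). A second probe set with the same 6 symbols averaged 6.43 on combination arrays and 6.37 on ASTX660 arrays, a difference of 0.06 log2 that was not called (adjusted p = 0.852). Of the 20 changes in this comparison 13 were negative, with a median of -0.13 log2. The largest rises were in brighter probe sets shared by H2AC18 and H2AC19, averaging 9.06 and 7.85. These rose by 0.24 and 0.31 log2 and were not called (adjusted p = 0.0843 and 0.0688). A dimmer probe set with those symbols, averaging 3.44, differed by -0.13 log2 (adjusted p = 0.589). The combination against solvent likewise gave 1 lower and none higher, against 1.78% and 4.26%. The 8 second probe sets of histone genes gave no call in any comparison. Because relatives may be read by one another's probes, the genes called here are not all separate measurements.

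Other genes of the histone pathway were compared from lists written from general knowledge. Their counts stand against 5.56% of all genes called higher and 3.29% called lower for SGI-110 against solvent (9.29% and 6.14% with the block), and 4.95% and 4.3% for the combination against ASTX660. In a list of 15 or 16 genes a single call is close to those shares. Of 9 replication-independent variants on the table (of 11 listed), H2AZ2 rose by 0.14 log2 (adjusted p = 0.0338) and CENPA, the centromeric H3 variant, fell by 0.32 log2 (adjusted p = 0.0205) for SGI-110 against solvent. H2AZ2 rose and CENPA and H2AZ1 fell in the combination against ASTX660, with 0.16 log2 (adjusted p = 0.0201) for H2AZ2. The DNA damage-marking variant gene H2AX was not called in either. The median change of the list for SGI-110 against solvent was -0.10 log2, against -0.01 over all genes. H1-10 belongs both to this list and to the 50.

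Of 15 genes for histone transcription and mRNA processing, 1 was called higher and none lower in each of the 2 comparisons. That gene was SRRT, which encodes an RNA-processing partner of the cap-binding complex, with a rise of 0.22 log2 (adjusted p = 0.00243) for SGI-110 against solvent. SLBP differed by 0.09 log2 (adjusted p = 0.296) and NPAT by 0.11 log2 (adjusted p = 0.53). Of 16 histone chaperone genes, 1 was called higher and 1 lower for SGI-110 against solvent. ASF1B rose by 0.31 log2 (adjusted p = 0.00335), and its paralogue ASF1A fell by 0.28 log2 (adjusted p = 0.0147). With the block 1 was called higher and 3 lower. In the combination against ASTX660 ASF1B rose by 0.23 log2 (adjusted p = 0.0222), IPO4, an importin for histones, fell by 0.36 log2 (adjusted p = 0.0249), and ASF1A did not pass (-0.18 log2, adjusted p = 0.117).

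Of 20 S-phase genes, 3 were called higher and none lower for SGI-110 against solvent, and 6 higher and 1 lower with the block. CCNE2, cyclin E2, rose by 0.37 log2 (adjusted p = 0.0164), RRM2, a ribonucleotide reductase subunit, by 0.17 log2 (adjusted p = 0.00476) and FEN1, a flap endonuclease, by 0.14 log2 (adjusted p = 0.0456). CCNE2 and TYMS were the 2 called in the combination against ASTX660, both higher. The list median was 0.05 log2 for SGI-110 against solvent and 0.04 log2 for the combination against ASTX660. None of these 4 lists had a call for ASTX660 against solvent, the combination against SGI-110 or the interaction.

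For SGI-110 against solvent, 5 of 10 myeloid markers, 1 of 7 lymphoid (NKG7) and 1 of 8 fibroblast or epithelial (KRT18) were called higher. Of all genes 5.56% were. No cell type marker was called lower, against 3.29% of all genes, and none of 5 erythroid markers was called. In the combination against ASTX660, 4 myeloid, 1 lymphoid and 2 fibroblast or epithelial markers were called higher and none lower. The shares of all genes were 4.95% and 4.3%. Intensities summed over the 10 myeloid markers ran from 15.14 to 15.24 log2 on SGI-110 arrays and from 15.08 to 15.19 log2 on solvent arrays. Intensities summed over the 7 lymphoid markers ran from 9.55 to 9.60 log2 on SGI-110 arrays and from 9.34 to 9.38 log2 on solvent arrays. NKG7 was the brightest of these 7 and weighs most in the sum, while 4 of the 7 changes were negative and the list median was -0.04 log2. Those of the 8 fibroblast or epithelial markers ran from 8.94 to 9.16 log2 on SGI-110 arrays and from 8.64 to 8.79 log2 on solvent arrays. Their part in the histone values was not tested.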

How the data were processed

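RNA of 12 ML-2 samples was labelled with biotin from 100 ng of total RNA by a 3′ IVT kit, per the labels' protocols. The authors deposited log2 intensities, made with RMA in the affy package, per the submitters' processing notes. Their versions, and whether all arrays shared 1 RMA run, are not given in the sources used here.

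Probe sets were named from the platform annotation. Of 54675 probe sets, 41091 non-control ones had 1 symbol, and each of 19775 genes was read by the one with the highest mean over 12 arrays, with no filter on brightness. limma 3.58.1 in R 4.3.3 fitted 1 mean per group with an intensity trend (8 residual degrees of freedom, two-sided, Benjamini-Hochberg adjustment over all genes). The median SE was 0.0936 log2, and 3 arrays per group limit the precision. On simulated data for SGI-110 against solvent with 19775 genes, 74 of 100 genes changed by 0.5 log2 and 96 of 100 changed by 1 log2 were recovered, and 6 of 176 calls were false. The simulated noise was independent between genes and arrays, and changes under 0.5 log2 were not simulated. These rates therefore do not cover the smaller changes of most histone genes.

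The numbers in the titles were read as experiment numbers. Deviations from group means correlated at 0.244, 0.234 and 0.432 between SGI-110 and solvent arrays of numbers 2, 9 and 13, which met the limit of 0.1 for pairing. Named genes were the 25 members with the lowest adjusted p in the 2 SGI-110 comparisons, any called in ASTX660 against solvent, the combination against SGI-110 or the interaction, the 10 of highest signal, and up to 3 per list. H2AC6, H2BC14, H2AC15, H2BC15, IPO4, TYMS, SLBP, NPAT, H2AX, H2AZ1 and the marker genes were named after their values were seen. The members and lists were chosen with earlier results of these data known. Alternatives were a replicate block, 2 brightness filters, 2 normalizations, no intensity trend, the mean of all probe sets, each array left out, and, added after the results were seen, a fit over all probe sets.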

Additional observations from a re-analysis of the deposited data

How the results depend on the processing

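Directions were kept by all called genes under all alternatives. With the replicate block, 6 of the 50 members were called lower for SGI-110 against solvent, against 2 without it. There were 5 of 50 for the combination against ASTX660, against 4, and 7 of 50 for the combination against solvent, against 5. In the first of these fits 6.14% of all genes were called lower, and in the others 7.81% and 6.41%, in that order. The numbers 2, 9 and 13 did not all meet the pairing limit in the last 2 comparisons (combination with ASTX660 0.02, 0.089 and 0.379, combination with solvent 0.081, 0.0676 and 0.381). Restricting the test to genes with a mean above the median left 23 members, of which 1 was called lower for SGI-110 against solvent, 1 for the combination against ASTX660 and 2 for the combination against solvent. The 1 in the first 2 comparisons was H2BC9, which was not called without the filter, and the 2 in the last were H1-4 and H2AC4. H2AC8 and H2BC4 were not among the 23. The share of all genes called under the filter was not tallied, so these counts cannot be set against it. Under that filter the median change for SGI-110 against solvent was -0.13, and with genes above the array median in at least 3 arrays (26 members) it was -0.15, and -0.10 for the combination against ASTX660. No member was called higher under any alternative.

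With each array left out in turn, the members called lower ranged from 2 to 4 for SGI-110 against solvent, from 2 to 5 for the combination against ASTX660 and from 2 to 6 for the combination against solvent. The share of all genes called in each of those fits was not tallied, so the ranges show only how the member counts moved. Without SGI-110 array 13 there were 4 for SGI-110 against solvent, without ASTX660 array 2 or combination array 13 there were 2 for the combination against ASTX660, and without solvent array 9 there were 2 for the combination against solvent. The median change ranged from -0.12 to -0.07, from -0.09 to -0.03 and from -0.14 to -0.08 in these comparisons, and from 0.015 to 0.0702 for the interaction. The cause was not tested. Genes at the dim end of the scale limit what the arrays can show.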
